A study of Mus musculus with 18 samples.

Results

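The clustered histone genes were taken as every row of the count table whose symbol begins with Hist1h, Hist2h, Hist3h or Hist4h. There were 68 such genes among 24421 symbols, and 64 of them passed the expression filter, a mean of at least 1 CPM (counts scaled to library size with TMM factors) over all libraries, which 12808 genes passed. The libraries came from hematopoietic stem cells (HSCs) of young mice (2 to 3 months) and of aged mice (23 to 25 months). All mice carried the Hoxb5-tri-mCherry reporter on a C57BL/6J background. LT-HSCs (long-term HSCs) were the mCherry-positive and ST-HSCs (short-term HSCs) the mCherry-negative cells of the HSC gate, and bulk-HSCs were the whole gate, sorted by surface markers without regard to the reporter. Each fraction was sequenced in 3 libraries at each age, 18 in all, without a genetic or drug treatment. The labels do not say whether these came from separate animals, so p-values measure the spread between libraries, which may be technical.

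Histone proteins package DNA. H2A, H2B, H3 and H4 form the nucleosome core, and the linker histone H1 binds where DNA enters and leaves it. Most clustered histone genes are transcribed mainly in S phase, when new chromatin is assembled, and their mRNAs end in a short stem-loop instead of a poly(A) tail. HSCs are known for dividing rarely. Ribosomal RNA was removed without selection for poly(A), so transcripts without a tail can be counted.

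The 68 genes lay in 4 places of the mm10 genome (GRCm38, annotated with GENCODE M21). Hist1, on chromosome 13 from 21715763 to 23934851, held 54 of them in blocks of 23 and 31 genes, separated by a gap of 1487373 bases between Hist1h2bj and Hist1h4h. Hist2 on chromosome 3 held 10, Hist3 on chromosome 11 held 3 and Hist4 on chromosome 6 held 1. By class there were 6 H1, 18 H2A, 19 H2B, 12 H3 and 13 H4 genes, and 67 of the 68 were annotated as protein coding, the other being the pseudogene Hist3h2bb-ps. For 63 of them a single transcript was annotated.

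The stem-loop could be searched for in 50 genes with at least 50 annotated bases after the stop codon. Within 150 bases, the search took the first stem of 6 base pairs around a loop of 4. The stem had to begin with GG and the loop with TT, and G-T pairs were allowed. The GG and TT that all forms share were thus set by the search. A stem-loop was found in 44 of the 50 genes, 21 to 58 bases after the stop codon, in 6 forms. The 6 forms are shown because they are the feature that most of these genes share, with the stem and loop in capitals and 5 bases on each side. The first form was shared by 26 H1, H2A, H2B and H3 genes, the next by 7 H4 genes, the third by 6 H1, H2B and H3 genes, the fourth and the fifth by 2 H4 genes each, and the last was found in Hist2h2ac.
Hist1h2ao, chr13:21810893-21810918, plus strand: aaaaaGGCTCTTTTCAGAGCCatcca
Hist1h4n, chr13:21831793-21831818, minus strand: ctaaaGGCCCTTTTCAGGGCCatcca
Hist1h2bk, chr13:22036295-22036320, plus strand: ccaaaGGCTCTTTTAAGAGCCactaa
Hist1h4i, chr13:22040961-22040986, minus strand: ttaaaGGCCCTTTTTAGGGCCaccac
Hist1h4b, chr13:23757361-23757386, plus strand: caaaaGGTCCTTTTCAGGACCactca
Hist2h2ac, chr3:96220413-96220438, minus strand: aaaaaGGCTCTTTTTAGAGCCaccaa

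In 22 of the 44 genes the annotated transcript ran over 100 bases past the stem-loop, and in 13 of the 68, Hist1h1b, Hist1h2bn and Hist1h3i among them, the annotation ended at the stop codon. Levels per length therefore rest on annotated ends that differ between genes.

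HSC markers were present in every library, with Kit at 1075 to 1570 CPM, Procr at 78.1 to 157 CPM, Mecom at 210 to 358 CPM and Fgd5 at 120 to 235 CPM. Hoxb5 was at 8.20 to 40.3 CPM in LT-HSCs, and at 0 to 5.61 CPM in the other young and 0.397 to 14.1 CPM in the other aged libraries. The depth was 16495048 to 22973844 counts per library, at which 3 counts, the floor used here, equal 0.132 to 0.176 CPM. Reads carried no molecular identifiers, so the floor covers counting error only. Replicates of a group differed by far more than counting noise, with a chi-square per gene of 33.1 to 206, so no library was a copy of another.

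Clustered histone RNA was present in every library. The 68 genes took 0.185% to 0.506% of a library's counts. The summed level, in CPM, was 2562, 2150 and 3517 for replicates 1 to 3 of young LT-HSCs, 4035, 2350 and 3718 for young ST-HSCs and 3177, 3867 and 5006 for young bulk-HSCs. The aged libraries had 2083, 1854 and 2910 for LT-HSCs, 2959, 2346 and 3760 for ST-HSCs and 2307, 3401 and 3039 for bulk-HSCs. The highest library was young bulk-HSC replicate 3 and the lowest aged LT-HSC replicate 2, and young and aged libraries overlapped in each fraction. The log2 ratio of the aged over the young mean was −0.27 for LT-HSCs, −0.16 for ST-HSCs and −0.46 for bulk-HSCs, beside a pooled SD between libraries of one group of 0.35 on the log2 scale. Among young fractions it was −0.30 for LT-HSCs over ST-HSCs, −0.55 for LT-HSCs over bulk-HSCs and −0.25 for ST-HSCs over bulk-HSCs. In such bulk samples, fewer cells of a type and less RNA per cell cannot be told apart.

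**Figure D1:**
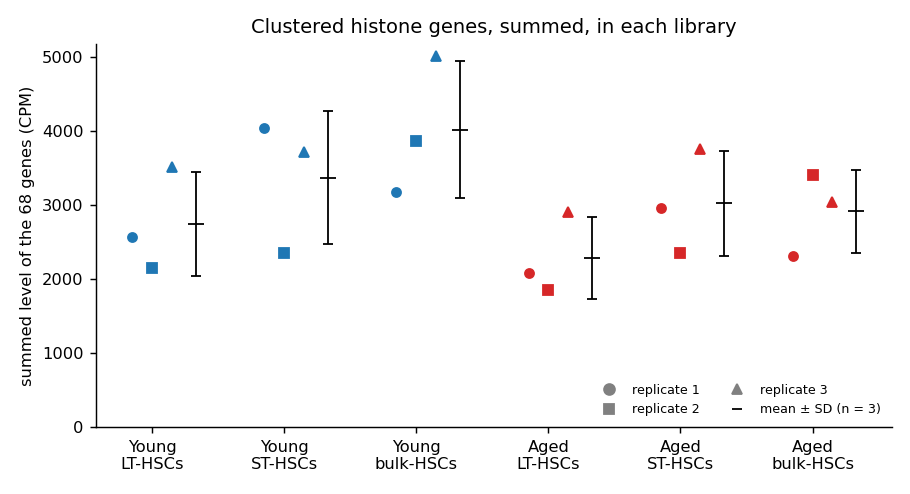
Summed level of the 68 clustered histone genes in each of the 18 libraries, in CPM on a linear axis that starts at 0, by group, with the mean and SD of 3 libraries beside the points. The sums run from 1854 to 5006 CPM, and young and aged libraries overlap in each fraction.

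H4 genes took 24.6% ± 2.79 (SD, n = 18) of the histone counts, H2B 21.8% ± 2.25, H1 21.7% ± 2.53, H2A 16.5% ± 0.999 and H3 15.4% ± 1.57. Scaled per kilobase of annotated exon, H4 had 28.6%, H2B 24.7%, H2A 21.6%, H3 15.6% and H1 9.50%. The H1 share of counts was 25.6% ± 0.772 (SD, n = 3) in aged bulk-HSCs and 19.2% ± 0.638 (SD, n = 3) in young bulk-HSCs, groups that did not overlap. It was 21.5% ± 2.03 in young and 22.0% ± 1.66 in aged LT-HSCs, and 20.9% ± 3.64 in young and 21.1% ± 0.545 in aged ST-HSCs, with overlap in each. The H2B share of ST-HSCs also did not overlap, at 22.8% to 26.3% in young and 18.6% to 20.6% in aged libraries. In bulk-HSCs it was 21.6% to 24.6% in young and 20.1% to 21.4% in aged libraries, and in LT-HSCs the ages overlapped. The H2A share was apart in bulk-HSCs alone, with a mean of 17.7% in young and 16.7% in aged libraries. The H3 and H4 shares overlapped in each fraction, and no share was tested.

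Single genes differed widely in level. The median gene that passed the filter had a mean of 33.5 CPM over all libraries, 58 had at least 10 CPM, and the 10 highest genes made up 42.8% of the summed mean. Per kilobase of exon the highest levels were those of Hist1h4n at 218 CPM, Hist1h4h at 206, Hist1h4d at 196 and Hist2h2bb at 196. Hist1h4n and Hist1h4m have the same coding sequence, as do the pair Hist1h2bq and Hist1h2br, and Hist1h4m and Hist1h2bq were nearly or fully without counts, so the level of their partners may hold the reads of both.

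Hist1h4n had 65.1, 71.2 and 96.7 CPM in replicates 1 to 3 of young LT-HSCs, while young ST-HSCs had 135, 75.5 and 114 and young bulk-HSCs 123, 108 and 125. Aged LT-HSCs had 49.0, 74.4 and 103, aged ST-HSCs 94.7, 87.2 and 123 and aged bulk-HSCs 60.9, 88.5 and 90.7 CPM. Only in bulk-HSCs did the ages not overlap. Hist1h4h ran from 59.0 to 149 CPM over the young and from 78.5 to 126 over the aged libraries, and the ages overlapped in each fraction. Hist1h4d ran from 162 to 299 CPM in young and from 166 to 275 in aged libraries, and Hist2h2bb, an H2B gene of the Hist2 cluster, from 52.2 to 98.5 and from 53.5 to 91.6. Averaged over fractions, the age estimate on the log2 scale was −0.23 for Hist1h4n (standard error 0.15, edgeR, adjusted p = 0.441), −0.0037 for Hist1h4h (standard error 0.15, adjusted p = 0.997), −0.10 for Hist1h4d (standard error 0.10, adjusted p = 0.679) and −0.14 for Hist2h2bb (standard error 0.12, adjusted p = 0.599), all within the spread between libraries.

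The 4 genes that did not pass the filter were Hist1h1t, Hist1h2aa, Hist1h2bq and Hist1h4m. Hist1h1t, a linker histone of the testis, was above 0 only in young LT-HSC replicate 2 at 0.832 CPM and in aged bulk-HSC replicates 1 and 2 at 0.617 and 1.47 CPM. Hist1h2aa and Hist1h2bq had 0 counts in every library. For Hist1h2aa this allows up to 0.132 to 0.176 CPM per library. For Hist1h2bq it sets no such bound, since Hist1h2br, of the same coding sequence, held all counts of the pair, 35.6 to 164 CPM. Hist1h4m did not exceed 0.760 CPM as counted, with the same limit through Hist1h4n. Hist1h2ba, an H2B gene of the testis, passed the filter at a mean of 1.55 CPM, with 0.0453 to 6.40 CPM in young and 0.164 to 1.52 CPM in aged libraries.

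The change with age was tested first within each fraction, with one edgeR quasi-likelihood fit over all 12808 genes and Benjamini-Hochberg adjustment. In LT-HSCs 50 of the 64 genes had a negative log2 fold change, with a median of −0.28 against 0.036 over all genes tested. None passed an adjusted p under 0.05, where 0.445% of all genes did, and 4 were lower at an unadjusted p under 0.05, where 3.61% of all genes were. In ST-HSCs 46 of 64 were negative, with a median of −0.21 against 0.025. None passed (0.851% of all genes), and 1 was lower at an unadjusted p (4.02% of all genes). In bulk-HSCs 57 of 64 were negative, with a median of −0.62 against 0.031. There 1 gene passed and was lower, where 1.98% of all genes passed in either direction and 57 of 12808 were called lower. At an unadjusted p under 0.05, 20 were lower (5.08% of all genes) with none higher. Beside this, Rn45s took 13.9% to 14.1% of counts in young and 15.7% to 17.4% in aged bulk-HSCs, and 12103 to 12607 against 13652 to 14133 genes were detected, both without overlap, and their part in the lower histone levels was not tested. The 20 lower members held 8 of 12 H4 genes, 4 of 17 H2A, 4 of 18 H2B, 3 of 12 H3 and 1 of 5 H1 genes.

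**Figure D2:**
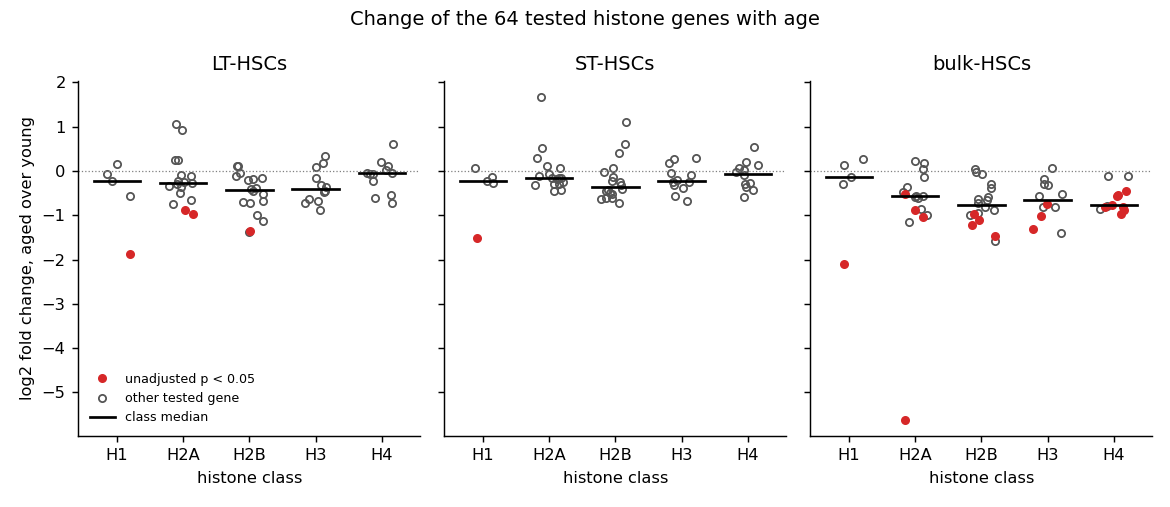
Log2 fold change of aged over young for each of the 64 tested genes, by histone class and fraction, with filled points for an unadjusted p under 0.05 (edgeR) and a bar at the class median. In bulk-HSCs 57 of 64 lie below 0, against 50 in LT-HSCs and 46 in ST-HSCs, and the lowest point is Hist1h2ao at −5.61.

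The classes were not equally low. The median log2 fold change in LT-HSCs was −0.43 for H2B, −0.40 for H3, −0.27 for H2A, −0.22 for H1 and −0.052 for H4. In ST-HSCs the medians were −0.36 for H2B, −0.22 for H3 and H1, −0.16 for H2A and −0.058 for H4. In bulk-HSCs they were −0.78 for H4, −0.76 for H2B, −0.66 for H3, −0.57 for H2A and −0.14 for H1. H4 genes thus stood nearest to 0 of the classes in LT-HSCs and ST-HSCs and farthest in bulk-HSCs, which is a description of medians without a test between classes or fractions. By the summed level of each class, H2B was farthest from 0 in bulk-HSCs at −0.63, with H3 at −0.58 and H4 at −0.57. H2A was at −0.55 and H1 at −0.042.

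Within single fractions the genes with the smallest p in LT-HSCs were Hist1h1b, described with the averaged age effect, and Hist1h2ae, an H2A gene. Hist1h2ae had 29.7, 24.9 and 26.5 CPM in young and 11.7, 14.3 and 17.9 in aged LT-HSCs, with every aged library below every young one. The log2 estimate was −0.88 (standard error 0.36, edgeR, adjusted p = 0.460). Without overlap, 3 of 64 members and 754 of 12808 genes were lower in aged LT-HSCs. In ST-HSCs the second smallest p was that of Hist1h2be, an H2B gene, at 72.3, 56.2 and 106 CPM in young and 55.9, 47.0 and 62.6 in aged libraries (estimate −0.50, standard error 0.25, edgeR, adjusted p = 0.564), with overlap between ages.

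In bulk-HSCs the gene that passed was Hist1h2ao (log2 estimate −5.61, standard error 1.42, edgeR, adjusted p = 0.0494), an H2A gene on chromosome 13 from 21810465 to 21810944. It had 18, 687 and 1103 counts in young and 7, 13 and 15 in aged bulk-HSC replicates 1 to 3. Its coding sequence of 390 bases is identical to that of Hist1h2ap, on the same chromosome from 21833026 to 21833507, which had 833, 516 and 707 counts in the young and 719, 944 and 836 in the aged libraries. Summed, the pair had 851, 1203 and 1810 counts in young and 726, 957 and 851 in aged bulk-HSCs, and the age difference of the sum was −0.61 (standard error 0.34, edgeR, adjusted p = 0.484). The sum was tested after the values had been seen.

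Hist1h2ao was also near 0 in 3 young libraries. It took 1.45% of the pair's counts in young LT-HSC replicate 3, 1.47% in young ST-HSC replicate 2 and 2.12% in young bulk-HSC replicate 1, and 0.964% to 1.76% in aged bulk-HSCs, but 50.9% to 70.4% in each of the other libraries. No library lay between these ranges. Other pairs of identical coding sequence split in a like manner in single libraries. Hist2h2aa2 and Hist2h2aa1 had 2 and 4189 counts in aged bulk-HSC replicate 2 and 2385 and 39 in young ST-HSC replicate 1. Hist2h3c1 and Hist2h3c2 had 2 and 921 counts in aged ST-HSC replicate 2. How the counting divided such reads is not given in the sources used here, and the level of any single gene of these pairs is uncertain.

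**Figure D3:**
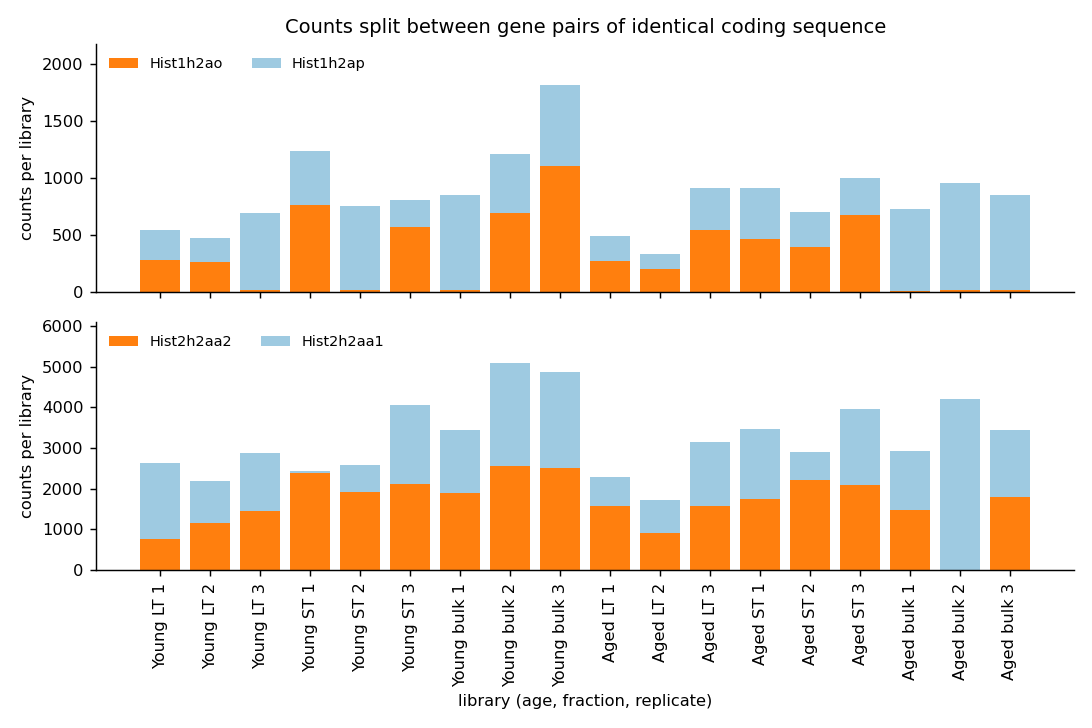
Counts of Hist1h2ao and Hist1h2ap (top) and of Hist2h2aa2 and Hist2h2aa1 (bottom) stacked for each library, on linear axes. Hist1h2ao holds under 3% of its pair's counts in the 3 aged bulk-HSC libraries and in 3 young libraries, while the height of the stack varies less.

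Coding sequences of one class were alike throughout. Among pairs of equal length the median identity was 96.7% for H2A, 97.4% for H2B, 97.2% for H3 and 93.9% for H4. When members with an identity of 99% or more were summed before the fit, an alternative added after the data were seen, 53 genes and sums were left and none passed in bulk-HSCs, while 17 were lower at an unadjusted p under 0.05 and the median was −0.59.

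Averaged over the 3 fractions, which uses all 18 libraries, 57 of the 64 genes had a negative log2 fold change with age, with a median of −0.40 against 0.037 over all genes. The fit treated the fractions of an age as independent libraries. If these share animals, which the labels do not say, p-values of the averaged effect may be too small. Hist1h1b, Hist1h3i, Hist1h2bk and Hist1h2bn fell at an adjusted p under 0.05 (6.75% of all genes passed in either direction) and no member rose. With 4 of 64 past the threshold, their share was near that of all genes when direction is set aside. All 4 fell, while 308 of 12808 genes were called lower and 556 higher. At an unadjusted p under 0.05, 18 members were lower, where 7.98% of all genes were, and none was higher. These 18 held 7 of 18 H2B, 5 of 12 H4, 3 of 17 H2A, 2 of 12 H3 and 1 of 5 H1 genes.

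Hist1h1b encodes a linker histone. It lies on chromosome 13 from 21779883 to 21780625 on the minus strand and had 8.01, 13.7 and 28.5 CPM in young and 1.47, 2.64 and 9.55 in aged LT-HSC replicates 1 to 3. Young ST-HSCs had 51.8, 31.0 and 34.9 CPM and aged ST-HSCs 5.87, 8.55 and 27.0, and young bulk-HSCs had 38.2, 79.2 and 60.3 and aged bulk-HSCs 7.97, 23.5 and 10.1. Every aged library was below every young one in ST-HSCs and bulk-HSCs, and the highest aged LT-HSC library overlapped the lowest young one. The log2 fold change averaged over fractions was −1.82 (standard error 0.39, edgeR, adjusted p = 0.00793). Within fractions it was −1.87 for LT-HSCs (standard error 0.69, edgeR, adjusted p = 0.370), −1.51 for ST-HSCs (standard error 0.67, adjusted p = 0.461) and −2.09 for bulk-HSCs (standard error 0.68, adjusted p = 0.143). With each of the 18 libraries left out in turn, the averaged change stayed past the threshold each time, between −2.21 and −1.62. Lower without overlap with age were 1 of 64 members and 962 of 12808 genes in ST-HSCs, and 22 and 1190 in bulk-HSCs.

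None of the other H1 genes passed the threshold. Hist1h1b made up 2.77% ± 1.37 (SD, n = 3) of H1 counts for young LT-HSCs, 5.63% ± 0.153 for young ST-HSCs and 7.69% ± 2.32 for young bulk-HSCs, and 0.844% ± 0.645, 2.04% ± 1.28 and 1.79% ± 0.818 in their aged counterparts. Hist1h1c, the most abundant linker histone here, had between 36.9 and 44.3% of H1 counts on average in young and 41.3 to 49.5% in aged groups. Its averaged log2 fold change was 0.047 (standard error 0.11, edgeR, adjusted p = 0.901), that of Hist1h1e −0.028 (standard error 0.15, adjusted p = 0.958), that of Hist1h1a −0.14 (standard error 0.26, adjusted p = 0.863) and that of Hist1h1d −0.30 (standard error 0.18, adjusted p = 0.383). Hist1h1c, Hist1h1e, Hist1h1a and Hist1h1d are named because they are the rest of the H1 genes past the filter.

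Hist1h2bk and Hist1h2bn are H2B genes of the first Hist1 block. Hist1h2bk, at 22035870 to 22036345, had 49.7, 42.8 and 72.3 CPM in the young LT-HSC libraries, 78.9, 39.2 and 88.4 in the ST-HSC and 68.1, 91.4 and 113 in the bulk-HSC libraries. The aged libraries had 31.8, 24.7 and 44.1 CPM for LT-HSCs, 54.1, 31.5 and 66.5 for ST-HSCs and 29.5, 55.7 and 55.0 for bulk-HSCs. The ages overlapped in LT-HSCs and ST-HSCs and not in bulk-HSCs. The averaged log2 fold change was −0.70 (standard error 0.20, edgeR, adjusted p = 0.0431).

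Hist1h2bn, at 21754123 to 21754503, had 32.6, 38.8 and 90.2 CPM in the young LT-HSC libraries, 77, 42.8 and 91.9 in the ST-HSC and 79.3, 91.2 and 149 in the bulk-HSC libraries. The aged libraries had 9.33, 22.6 and 48.8 CPM for LT-HSCs, 29.8, 26.3 and 71.4 for ST-HSCs and 28.1, 57.2 and 30.0 for bulk-HSCs. Here too the ages were apart in bulk-HSCs alone. Its averaged log2 fold change was −1.07 (standard error 0.31, edgeR, adjusted p = 0.0458).

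Hist1h3i, an H3 gene at 21782960 to 21783370, had 21.8, 13.2 and 35.2 CPM in the young LT-HSC libraries, 26.9, 22.9 and 45.7 in the ST-HSC and 40.2, 42.2 and 54.7 in the bulk-HSC libraries. The aged libraries had 12.5, 12.5 and 17.5 CPM for LT-HSCs, 24.6, 9.23 and 30.8 for ST-HSCs and 15.9, 24.6 and 14.5 for bulk-HSCs. Its averaged log2 fold change was −0.87 (standard error 0.25, edgeR, adjusted p = 0.0414), again with no overlap in bulk-HSCs alone. Its coding sequence differs from that of Hist1h3h at 4 of 408 bases, and the sum of Hist1h3g, Hist1h3h and Hist1h3i had an averaged estimate of −0.38 (standard error 0.21, edgeR, adjusted p = 0.336), which did not pass.

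**Figure D4:**
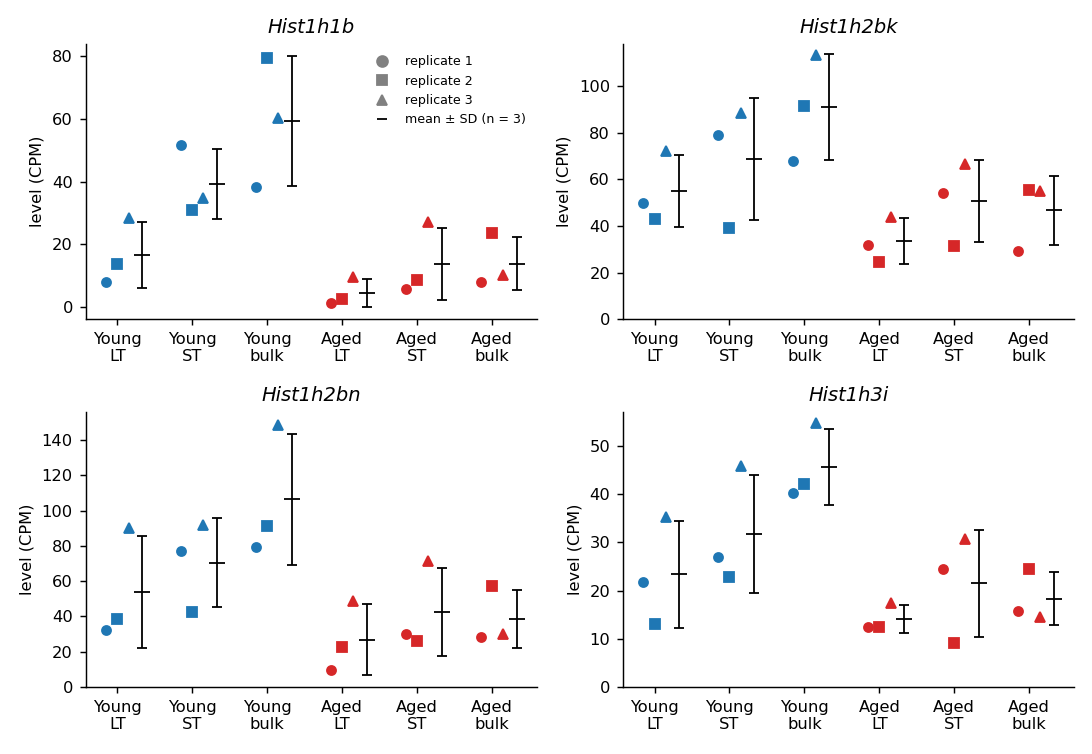
Level in CPM of the 4 genes that fell with age on average over fractions, in each library by group (3 libraries each), on linear axes, with the mean and SD beside the points. In bulk-HSCs every aged library lies below every young library for all 4 genes, as it does for 22 of the 64 tested members and 1190 of 12808 genes.

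These calls rest on thin margins apart from Hist1h1b. The count of 4 became 1 without any single library among young LT-HSC replicate 3, young ST-HSC replicate 3, young bulk-HSC replicate 3, aged LT-HSC replicates 1 and 2, aged ST-HSC replicates 1 and 2 and aged bulk-HSC replicates 1 and 3. It became 2 without young ST-HSC replicate 1 or young bulk-HSC replicate 2, and 8 without young ST-HSC replicate 2. Of the 18 fits, Hist1h2bn stayed past the threshold in 7, Hist1h3i in 6 and Hist1h2bk in 5.

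Several promoters are shown because the data bear on these genes. They are 300-base RefSeq promoters (GRCm38.p6, 250 bases before the start site and 50 after), available for 62 of the 68 genes, in which the motif CCAAT, the TATA box as TATAAA and the octamer ATTTGCAT were searched for on both strands and are in capitals. Hist1h1b, Hist1h2bk and Hist1h2bn fell with age, and Hist1h4n had the highest level per kilobase.
Hist1h1b promoter, chr13:21780576-21780875, minus strand: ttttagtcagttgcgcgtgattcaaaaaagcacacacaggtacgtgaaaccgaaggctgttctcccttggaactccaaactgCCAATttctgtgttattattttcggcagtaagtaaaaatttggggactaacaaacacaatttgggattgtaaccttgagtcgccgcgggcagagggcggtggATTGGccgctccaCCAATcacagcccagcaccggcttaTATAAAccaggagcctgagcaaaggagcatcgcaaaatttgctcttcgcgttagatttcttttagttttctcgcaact
Hist1h2bk promoter, chr13:22035571-22035870, plus strand: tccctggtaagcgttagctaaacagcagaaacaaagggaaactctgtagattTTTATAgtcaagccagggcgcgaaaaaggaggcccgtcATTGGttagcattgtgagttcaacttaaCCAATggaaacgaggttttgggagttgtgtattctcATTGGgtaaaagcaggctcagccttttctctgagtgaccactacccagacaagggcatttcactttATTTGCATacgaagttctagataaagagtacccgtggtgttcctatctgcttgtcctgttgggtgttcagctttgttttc
Hist1h2bn promoter, chr13:21753826-21754125, plus strand: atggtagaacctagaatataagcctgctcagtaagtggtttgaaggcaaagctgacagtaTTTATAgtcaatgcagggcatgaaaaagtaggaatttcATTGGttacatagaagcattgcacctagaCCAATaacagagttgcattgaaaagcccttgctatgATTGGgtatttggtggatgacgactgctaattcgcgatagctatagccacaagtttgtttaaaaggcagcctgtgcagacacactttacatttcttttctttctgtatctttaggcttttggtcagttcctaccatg
Hist1h4n promoter, chr13:21832148-21832447, minus strand: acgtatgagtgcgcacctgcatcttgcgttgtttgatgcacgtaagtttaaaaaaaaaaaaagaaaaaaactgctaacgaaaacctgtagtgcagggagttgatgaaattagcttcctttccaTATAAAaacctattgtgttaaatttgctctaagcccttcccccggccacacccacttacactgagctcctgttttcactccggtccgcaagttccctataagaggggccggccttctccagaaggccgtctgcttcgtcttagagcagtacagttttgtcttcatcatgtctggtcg

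CCAAT was found in 53 of the 62 promoters (85.5%), against 37.9% of 27025 RefSeq promoters of the same length. All H1, H2A, H2B and H3 promoters held it, and 3 of 12 H4 promoters did. TATAAA was found in 56.5% of the histone promoters and 14.2% of all. ATTTGCAT, the octamer that Oct factors bind, was found in 7 of 18 H2A and 6 of 16 H2B promoters and in none of the H1, H3 or H4 promoters, with 1.75% over all RefSeq promoters. Among the 4 promoters shown, Hist1h2bk held all 3 motifs and Hist1h4n only TATAAA. In Hist1h2bk and Hist1h2bn the TATAAA match lay on the opposite strand, as TTTATA. Where H2A and H2B genes lie head to head, with 175 to 305 bases between start sites, their promoters can overlap. A single match can then count for both genes, so the H2A and H2B counts are not independent. These are matches of letters, not sites shown to be bound.

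H2A and H2B genes often sat head to head. There were 12 such pairs, with 175 to 305 bases between start sites, and both genes passed the filter in 10 of them. With age both estimates were negative in 10 of 10 pairs on average over fractions and in 8 of 10 in bulk-HSCs. Hist1h2ak and Hist1h2bn, 295 bases apart, had averaged log2 fold changes of −0.43 and −1.07, and Hist1h2ah and Hist1h2bk, 301 bases apart, had −0.38 and −0.70. Hist1h2ae and Hist1h2bg, the closest pair at 175 bases, had −0.64 and −0.63. Since 57 of the 64 members were negative on average, pairs of like sign are not set apart from the rest.

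Neither position nor the annotated end set a group of members apart by sign. The averaged change had a median of −0.40 in the 21 tested genes of the first Hist1 block, −0.41 in the 29 of the second and −0.34 in the 10 Hist2 genes. It was −0.27 in the 21 tested genes with over 100 annotated bases after the stem-loop, −0.50 in the 21 with 100 or fewer and −0.34 in the 12 whose annotation ended at the stop codon.

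Between fractions, histone estimates were mostly lowest in LT-HSCs. By group mean, 50 of the 64 genes had their highest level in young bulk-HSCs, and 44 had their lowest in aged LT-HSCs. Bulk-HSCs are the whole gate that LT-HSCs and ST-HSCs divide, and a mixture would lie between its parts. In young mice the mean summed level was 4017 CPM in bulk-HSCs, above 2743 in LT-HSCs and 3368 in ST-HSCs. In aged mice it was 2916 CPM, between 2282 and 3022. The cause was not tested, and the age effect in bulk-HSCs is measured from these young libraries. Among young fractions 57 of 64 estimates were negative for LT-HSCs against ST-HSCs (median log2 difference −0.37), 61 of 64 for LT-HSCs against bulk-HSCs (median −0.70) and 59 of 64 for ST-HSCs against bulk-HSCs (median −0.32). Over all genes the medians were −0.0040, 0.00013 and −0.00077. No member passed the adjusted threshold in the 3 comparisons, where 0.429%, 0.273% and 0.164% of all genes did. At an unadjusted p under 0.05, 0, 14 and 1 members were lower, where 5.07%, 4.93% and 4.06% of all genes were.

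The members with the smallest p between young LT-HSCs and bulk-HSCs were Hist1h3f and Hist1h2bh. Hist1h3f, an H3 gene, had 51.7, 42.7 and 45.9 CPM in LT-HSCs and 64.5, 75.8 and 121 in bulk-HSCs, without overlap (log2 difference −0.90, standard error 0.29, edgeR, adjusted p = 0.222). Hist1h2bh, an H2B gene, had 9.97, 7.0 and 17 CPM in LT-HSCs and 21.4, 37.4 and 35.5 in bulk-HSCs, also without overlap (−1.47, standard error 0.52, edgeR, adjusted p = 0.278). In this comparison 18 of 64 members and 771 of 12808 genes were lower without overlap. Between young LT-HSCs and ST-HSCs the smallest p were those of Hist1h1a (−0.94, standard error 0.46, edgeR, adjusted p = 0.496) and Hist1h3g (−0.92, standard error 0.46, adjusted p = 0.507), whose libraries overlapped.

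Hist3h2a, an H2A gene outside the large clusters, had the smallest p between young ST-HSCs, at 43.4, 40.6 and 35.8 CPM, and young bulk-HSCs, at 53.9, 43.5 and 71.4 (log2 difference −0.49, standard error 0.20, edgeR, adjusted p = 0.423). Hist1h4d followed at −0.31 (standard error 0.18, edgeR, adjusted p = 0.662). In aged mice Hist3h2a had 34.3, 25.9 and 32.0 CPM in LT-HSCs and 51.3, 47.8 and 48.0 in ST-HSCs, without overlap (−0.67, standard error 0.20, edgeR, adjusted p = 0.733). There 5 of 64 members and 812 of 12808 genes were lower without overlap.

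Among aged fractions 61 of 64 estimates were negative for LT-HSCs against ST-HSCs (median −0.43) and 54 of 64 for LT-HSCs against bulk-HSCs (median −0.37), while 46 of 64 were positive for ST-HSCs against bulk-HSCs (median 0.17). No member passed in any of the 3, where 0.00781%, 0% and 0% of all genes did, and 4, 5 and 2 were lower at an unadjusted p under 0.05, where 1.56%, 1.6% and 1.53% of all genes were. Hist1h3f was again among the smallest p between aged LT-HSCs and ST-HSCs (−0.74, standard error 0.29, edgeR, adjusted p = 1). Against aged bulk-HSCs the smallest p in both LT-HSCs and ST-HSCs were those of Hist1h2ao and Hist1h2ap, whose counts were split as described, and their sum differed by −0.40 and 0.0077 (edgeR, adjusted p = 1 for each).

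Differences between fractions in the age effect were tested as interactions. Over the members the difference in age effect had a median of −0.14 for LT-HSCs less ST-HSCs, 0.32 for LT-HSCs less bulk-HSCs and 0.49 for ST-HSCs less bulk-HSCs, and 40, 14 and 9 of 64 estimates were negative. No member passed, where 0%, 0.00781% and 0.0625% of all genes did. Beside Hist1h2ao, the smallest p were those of Hist3h2a for ST-HSCs against bulk-HSCs (0.82, standard error 0.29, edgeR, adjusted p = 0.739) and for LT-HSCs against ST-HSCs (−0.60, standard error 0.29, adjusted p = 1), Hist2h2be for the latter (−1.43, standard error 0.85, adjusted p = 1) and Hist1h4c for LT-HSCs against bulk-HSCs (0.74, standard error 0.35, adjusted p = 0.841). The larger number of low members in bulk-HSCs than in LT-HSCs or ST-HSCs is therefore not shown to be a difference in the age effect. Both comparisons with bulk-HSCs share its libraries.

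Genes that act with the clustered histones were read from 5 lists, to be set against all genes in the age effect averaged over fractions. There 6.75% of all genes passed in either direction, with 308 of 12808 lower and 556 higher. A count such as 1 of 20 or 2 of 20 rests on few genes, and no list was tested as a set. Of 20 genes that transcribe and process histone mRNA, Srrt, a partner of the cap-binding complex, fell on average over fractions (log2 estimate −0.46, standard error 0.10, edgeR, adjusted p = 0.0116), and no other passed. Slbp, which binds the stem-loop, had 45.9 to 82.8 CPM in young and 23.9 to 51.2 in aged libraries (−0.51, standard error 0.15, edgeR, adjusted p = 0.0536), and Npat, the activator of histone gene transcription and given for that role, had −0.027 (standard error 0.10, adjusted p = 0.936). Of 19 histone chaperones, 2 fell. These were Chaf1a, a subunit of the complex that places H3 and H4 on newly copied DNA (−0.88, standard error 0.17, edgeR, adjusted p = 0.00325), and Atrx, a chromatin remodeler (−0.50, standard error 0.11, adjusted p = 0.00730).

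Of 11 replacement histones, which are made also outside S phase, H3f3b rose and none fell. H3f3b had 505 to 590 CPM in young and 680.0 to 961 CPM in aged libraries, so that every aged library was above every young one (0.53, standard error 0.058, edgeR, adjusted p = 1.53e-05). H2afy2 also passed the threshold (edgeR, adjusted p = 0.0157), but at 0 to 0.408 CPM in young and 0 to 5.95 CPM in aged libraries it passed the expression filter only through the aged ones, so it is not counted here. H3f3b was the only gene of this list past the threshold within bulk-HSCs (0.77, standard error 0.10, edgeR, adjusted p = 0.000418). The median of the list was 0.082 on average over fractions, against −0.40 for the clustered histone genes.

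Of 28 tested S phase genes, 27 were negative with a median of −0.51, and 6 fell. These were Dtl (−0.89, edgeR, adjusted p = 0.0431) and the helicase subunits Mcm2, Mcm3, Mcm4, Mcm5 and Mcm6, at −0.66 to −0.54 (edgeR, adjusted p between 0.000855 and 0.0138). Of 20 G2/M genes, 18 were negative with a median of −0.63, and Mki67 and Top2a fell (−0.98 and −0.67, edgeR, adjusted p = 0.00929 and 0.0281). The summed histone level moved with the summed G2/M level across libraries. On log2 scales Pearson's r was 0.93 and Spearman's rho 0.95 over the 18 libraries, 0.97 over the 9 young and 0.91 over the 9 aged libraries as Pearson's r, and 0.89 without the 2 libraries farthest from the median G2/M level. With the S phase sum r was 0.85 and rho 0.86, and 0.78 without the 2 farthest libraries, and with the replacement histones r was 0.10 and rho −0.026 over the 18 libraries, but r was 0.65 over the 9 young and 0.84 over the 9 aged libraries, with the replacement histone sum at 1360 to 1579 CPM in young and 1617 to 1953 CPM in aged libraries. These are descriptions, without a test, of sums that share library, depth and scaling.

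**Figure D5:**
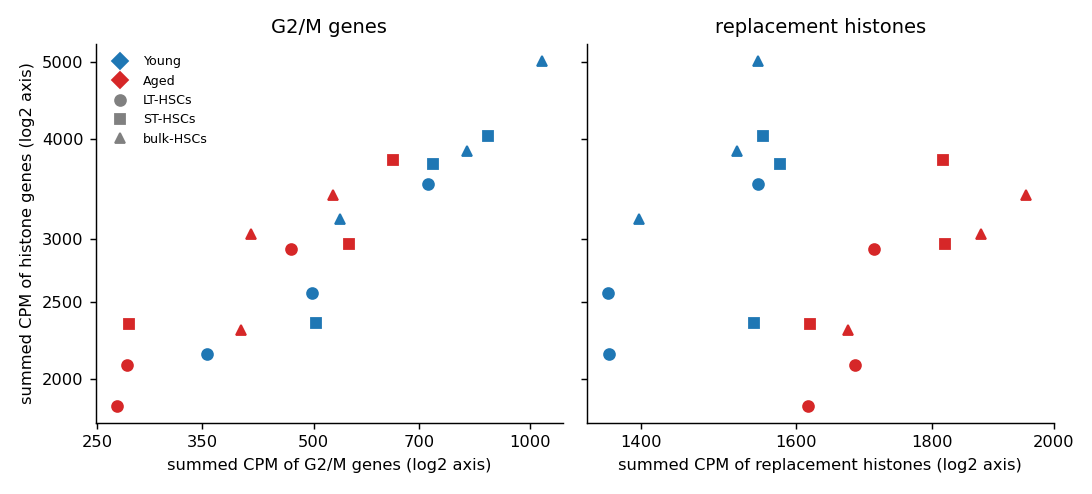
Summed CPM of the clustered histone genes against the summed CPM of 20 G2/M genes (left) and of 11 replacement histones (right) in the 18 libraries, on log2 axes, with color for age and symbol for fraction. Libraries with more G2/M RNA have more histone RNA (r = 0.93), and for the replacement histones r is 0.10 over all libraries but 0.65 over the 9 young and 0.84 over the 9 aged libraries, which lie farther right.

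The summed levels of markers of other cells were compared by range, without a test. Young and aged libraries overlapped in every list when the fractions were pooled. Within each fraction the ages did not overlap for the downstream progenitor list, lower in aged libraries. The same held for the neutrophil and monocyte and the T and NK cell lists, higher in aged libraries. The erythroid and B cell lists were apart in LT-HSCs alone and the platelet and megakaryocyte list in ST-HSCs alone. The downstream progenitor list (Cd48, Flt3 and Cd34) summed to 114 to 339 CPM in young and 63.7 to 149 in aged libraries, with Cd48 at most 2.27 CPM. The neutrophil and monocyte list, 3 of 10 genes past the filter and Mpo at 0 in every library, summed to 46.0 to 130 CPM in young and 126 to 188 in aged libraries, of which Prtn3 alone made 41.1 to 125 and 123 to 182 CPM, while Elane did not exceed 0.843 CPM. The T and NK cell list, with Cd3e, Cd3g and Ncr1 at 0 in every library and Klrb1c the 1 of 5 genes past the filter, summed to 0.227 to 25.7 CPM in young and 19.6 to 136 in aged libraries. The part of these in the lower histone levels of aged libraries was not tested. The erythroid list, 5 of 9 past the filter, ran from 0.996 to 154 CPM in young and from 12.7 to 57.8 in aged libraries, the B cell list, 1 of 7 past the filter, from 10.6 to 29.2 and from 12.9 to 26.1, and the platelet and megakaryocyte list, 5 of 5, from 67.5 to 153 and from 104 to 175.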

How the data were processed

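RNA of the 3 sorted fractions was sequenced by the authors after ribosomal RNA depletion, aligned to mm10 with HISAT2 and quantified with StringTie 1.3.4d (versions as listed in the submitters' processing notes, where SAMtools 1.7 is named too). The deposited values are counts per gene symbol, whole numbers that the authors had not normalized. The annotation used for counting, its use of strand and the handling of reads that align to several histone genes are not given in the sources used here. Such reads can be shared among near-identical genes, and genes on opposite strands cannot be told apart without strand.

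Groups came from the sample labels. Counts were scaled with TMM factors, genes with a mean of at least 1 CPM were kept, and one edgeR 4.0.16 quasi-likelihood model of the 6 groups was fitted (R 4.3.3, limma 3.58.1, 12 residual degrees of freedom) with Benjamini-Hochberg adjustment over all 12808 genes at 0.05. Contrasts gave the age effect in each fraction and its mean, the differences between fractions and the interactions. Standard errors were derived from each estimate and its F value. The alternatives were RLE size factors, library size alone, Rn45s left out, a minimum of 10 counts in every library, all genes with at least 1 count, DESeq2 1.42.0, the replicate block, a fit of only the groups compared and each library left out. The replicate block gave libraries of equal number one shared term across both ages. Sums of near-identical members were added after seeing the data.

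The depth was 16495048 to 22973844 counts per library, and Rn45s took 12.8% to 17.4%. Positions and coding sequences came from GENCODE M21, which matched all 68 members, and promoters from RefSeq. The members and lists were chosen with earlier results of these data known. Full statistics go to members past the threshold and to the 4 highest per kilobase of exon, and where none passed, the 2 with the smallest p are given. The test was tested on simulated counts of aged against young LT-HSCs over 12576 genes, of which 200 had a 4-fold change. It recovered 106 of them and called 8 unchanged genes.

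Equal replicate numbers were checked as pairs. Of 18 pairs of equal number within an age, 2 had a correlation of deviations over 0.1. For 14 of 18 libraries the best match within their age had their own number, so pairing remains possible. The labels give no pairs, and fractions were therefore compared as unpaired. Tables and figures were made with Python 3.11.15, pandas 2.3.3, numpy 2.4.6 and matplotlib 3.10.9.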

Additional observations from a re-analysis of the deposited data

How the results depend on the processing

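In bulk-HSCs the 1 member past the threshold with age became 0 with at least 10 counts in every library, which removes Hist1h2ao from the test, with a fit of only the groups compared, with the replicate block and with near-identical members summed. It became 5 with DESeq2, which called 5.81% of all genes there in either direction. Leaving out each bulk-HSC library in turn gave 0 to 1, with 0 in all cases except without young bulk-HSC replicate 1. For the age effect averaged over fractions the 4 members became 12 with DESeq2, all lower, where it called 11.7% of all genes in either direction, and 1 to 8 with each library left out. Hist1h2ao gave 1 member past the threshold between aged LT-HSCs and bulk-HSCs and 1 between aged ST-HSCs and bulk-HSCs, each with a fit of only the groups compared and with DESeq2, where the main count was 0. DESeq2 also gave 1 in the interaction of age with LT-HSCs against bulk-HSCs. The averaged change of Hist1h4h, −0.0037, was 0.023 with the replicate block and −0.081 to 0.13 with each library left out. With the replicate block 6 members fell on average over fractions, Hist1h1b, Hist1h2bb, Hist1h2bg, Hist1h2bk, Hist1h2bn and Hist1h3i, where 6.68% of all genes were called in either direction. That block joins young and aged libraries of equal number, whereas pairs were checked only within an age, so it is not a paired analysis. Equal numbers correlated between −0.032 and 0.16, and for 14 of 18 libraries the best match had their own number, a hint from the data and not from the design. Class shares per kilobase moved from those of counts, to 28.6% for H4, 24.7% for H2B, 21.6% for H2A and 9.50% for H1. The causes were not tested. Levels under about 3 counts per library, 0.132 to 0.176 CPM, could not be told from 0 at this depth. That floor covers counting error only. Replicates spread far more than this, so the smallest change that could be seen is larger, and it was not estimated.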

Other observations

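Besides Hist1h2ba, 5 tested members had a mean under 10 CPM, and their libraries spread widely. Hist2h2ab, an H2A gene, ran from 0 to 7.83 CPM in young and from 1.47 to 11.1 in aged libraries. Hist3h2ba ran from 0 to 8.17 and from 1.23 to 5.6 CPM, and the pseudogene Hist3h2bb-ps from 0 to 13.5 and from 0.943 to 5.96 CPM. Hist1h2ai and Hist1h2an ran from 4.59 to 15.9 CPM in young and from 3.19 to 13.6 in aged libraries. Young ST-HSC replicate 3 had 0 counts of Hist2h2ab, Hist3h2ba and Hist3h2bb-ps, and 6 of the 68 genes were at 0 there, the most of any library. Hist2h2be was at 1.19 CPM in that library and at 14.5 to 16.8 CPM in the other young ST-HSC libraries.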
